A study of Mus musculus with 3 samples.

Results

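The genes described here are 9 dual-specificity MAP kinase phosphatases, Dusp1, Dusp4, Dusp5, Dusp6, Dusp7, Dusp9, Dusp10, Dusp14 and Dusp16, taken by symbol from the 32285 genes in the deposited tables. They were measured in E14tg2a cells, an established mouse embryonic stem cell line, with the genotype Fgf4 -/-, so that the cells of every dose lack functional copies of this FGF ligand gene. Cells seeded in ES medium with LIF were moved for 24 h to N2B27, a defined medium, with Chiron (a GSK3 inhibitor), 1 μg/ml heparin and FGF4 at 0, 5 or 50 ng/ml. Each dose was 1 droplet-based 3' single-cell RNA library, and the labels do not say whether the mutant line was 1 clone.

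The 3 libraries held 373, 874 and 975 cell barcodes at 0, 5 and 50 ng/ml, with 42726514, 75184072 and 81409975 unique molecular identifiers (UMIs, each counting 1 captured RNA molecule) and no barcode in common. The median was 107873, 91763.5 and 87334 UMIs per cell. Cells above 10% mitochondrial UMIs made up 3.22%, 15.2% and 15.7% of barcodes, and the cells below 40000 UMIs held 0.443%, 2.34% and 2.92% of all UMIs. All 10 stem cell markers were detected at every dose, with a summed level of 5034, 4871 and 4650 UMIs scaled to a library total of 1000000 (CPM). The summed level of 8 fibroblast markers was 3.56 to 3.79 CPM, with Col3a1 and Postn at 0 in each library. The summed level of 6 primitive endoderm markers was 2.29, 1.49 and 3.78 CPM and that of 4 neuroectoderm markers 6.44, 7.42 and 7.26 CPM. Fgf4 transcripts were still counted, at 51.7, 24.9 and 20.4 CPM, and the labels do not say which part of the gene was removed, so 3' tags of it check nothing. With 1 library per dose no test between doses was possible, and all intervals given are 95% intervals for counting error only.

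MAP kinases are switched on when an upstream kinase phosphorylates a threonine and a tyrosine in their activation loop. Dual-specificity phosphatases of this family remove both phosphates and so switch the kinase off. In mouse embryonic stem cells FGF4 signals through FGF receptors and RAS to the MAP kinase ERK, a route that moves cells out of the naive state, and several phosphatases of the family are themselves targets of that route. Dusp1, Dusp4 and Dusp5 encode nuclear phosphatases. Dusp6, Dusp7 and Dusp9 encode the cytoplasmic, ERK-preferring branch. Dusp10 and Dusp16 act mainly on the stress kinases JNK and p38. Dusp14 encodes a small atypical member without the kinase-binding domain.

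The chemistry that defines the family can be read in the genes. In each principal transcript 1 stretch of 24 bases encodes the catalytic signature, and it is shown, 5' to 3' on the coding strand, to make visible what the 9 genes share. Capitals mark the codons of the catalytic cysteine and of the arginine that holds the phosphate. Sequences and positions are from the GENCODE M21 transcripts on GRCm38.
Dusp1: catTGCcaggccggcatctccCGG
Dusp4: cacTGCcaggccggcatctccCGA
Dusp5: cacTGCgaagctggggtttccCGG
Dusp6: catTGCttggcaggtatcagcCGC
Dusp7: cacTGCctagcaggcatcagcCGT
Dusp9: cacTGTctggcaggggtcagcCGC
Dusp10: cacTGCcaggccggcgtgtccCGA
Dusp14: cacTGTgcggcaggcgtgagcCGC
Dusp16: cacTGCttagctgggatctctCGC
The stretch lay in the coding part of exon 4 of Dusp1, Dusp4, Dusp5, Dusp9, Dusp10 and Dusp14, exon 3 of Dusp6 and Dusp7 and exon 6 of Dusp16. For Dusp6 it was chr10:99266027-99266050 on the plus strand, with the cysteine at codon 293 of 381, and for Dusp4 it was chr8:34818433-34818456 on the plus strand, with the cysteine at codon 284 of 398. Dusp4 shared 22 of the 24 bases with Dusp1 and 22 with Dusp10, to which its protein was 33.8% identical. For Dusp4 and Dusp10, likeness in this stretch thus did not go with likeness of the whole aligned protein. No relation over all pairs was computed. Over the aligned residues of the encoded proteins, leaving out unaligned ends and gaps, Dusp6 was 71.0% identical to Dusp7 and 59.4% identical to Dusp9, and Dusp1 was 64.6% identical to Dusp4. Dusp4 and Dusp6 were 37.5% identical.

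Dusp4 and Dusp6 were the members whose transcript level differed most between doses, and both were higher at 5 than at 0 ng/ml and higher again at 50 ng/ml. The other 7 members differed by less than 2-fold in every pair of libraries. Counts from 3' libraries record 1 tag per molecule and do not grow with transcript length. CPM were therefore also set beside each other between members, although other differences in capture between genes were not tested.

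Dusp6, which encodes the cytoplasmic ERK phosphatase used widely as a readout of FGF signalling (chr10:99263231-99267489, plus strand), had 72, 941 and 1513 UMIs at 0, 5 and 50 ng/ml. These were levels of 1.69 CPM (interval 1.32 to 2.12), 12.5 CPM (11.7 to 13.3) and 18.6 CPM (17.7 to 19.5), and the 3 intervals did not overlap. The level at 5 ng/ml was 7.43-fold that at 0 (interval 5.84 to 9.58), the level at 50 ng/ml was 11.0-fold that at 0 (8.70 to 14.2), and 50 exceeded 5 ng/ml 1.48-fold (1.37 to 1.61). The step from 0 to 5 ng/ml made up 64.1% of the whole difference in CPM between 0 and 50 ng/ml.

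Dusp4, a nuclear phosphatase of ERK and JNK (chr8:34807297-34819894, plus strand), had 45, 519 and 972 UMIs. Its level was 1.05 CPM (0.768 to 1.41), 6.90 CPM (6.32 to 7.52) and 11.9 CPM (11.2 to 12.7), again with no overlap of intervals. The ratio was 6.55 at 5 against 0 ng/ml (4.83 to 9.10), 11.3 at 50 against 0 (8.41 to 15.6) and 1.73 at 50 against 5 (1.55 to 1.93). The first step made up 53.7% of the whole difference for Dusp4.

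Both genes stood near the top of all genes measured. Among the 10966 genes with a mean of at least 2 CPM over the 3 libraries, Dusp6 ranked 27 from the highest ratio at 5 against 0 ng/ml, 23 at 50 against 0 and 56 at 50 against 5. Dusp4 ranked 31, 21 and 34 in the same comparisons. The comparisons of 5 and of 50 ng/ml with 0 share the 0 ng/ml library, so they are not independent of each other.

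Counted over all 9 members, 2 were at least 2-fold higher at 5 against 0 ng/ml, where 2.58% of all genes past the level filter were, and the same 2 at 50 against 0, where 2.88% of all genes were. No member was at least 2-fold lower in either comparison, against 2.38% and 3.81% of all genes. At 50 against 5 ng/ml no member was 2-fold apart in either direction, against 0.201% of all genes higher and 0.219% lower. With a limit of 1.5-fold, Dusp10 was lower at 50 against 0 ng/ml and Dusp4 higher at 50 against 5 ng/ml. All genes past the filter then gave 6.00% higher and 6.60% lower at 5 against 0 ng/ml, 6.41% and 9.78% at 50 against 0, and 0.483% and 1.04% at 50 against 5. Of the 9 members, 8 passed the filter, and Dusp10 did not. The median log2 ratio of the 9 was -0.04, 0.07 and 0.11 in the 3 comparisons, beside 0.02, -0.01 and -0.03 over all genes. At 50 against 5 ng/ml the median of the 9 was the value of Dusp5, which 12.8% of all genes exceeded.

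**Figure D1:**
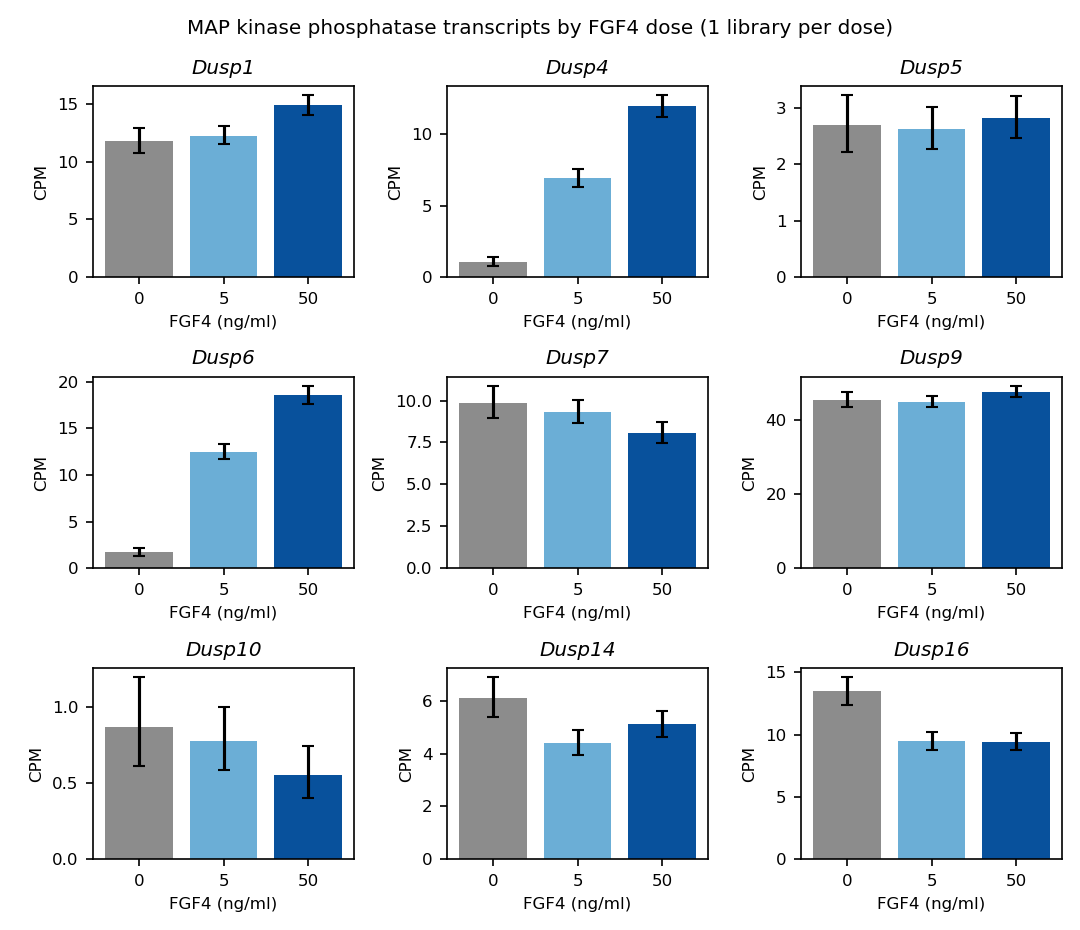
Level of each phosphatase transcript in CPM (vertical axes from 0, each with its own scale) at 0, 5 and 50 ng/ml FGF4; bars are single libraries and error lines are exact Poisson 95% intervals. Dusp6 goes from 1.69 to 12.5 and 18.6 CPM and Dusp4 from 1.05 to 6.90 and 11.9 CPM, while Dusp9 stays between 45.1 and 47.8 CPM.

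Among the other nuclear phosphatases, Dusp1 showed a small difference and Dusp5 none that counting error could resolve. Dusp1, an immediate early gene product that acts on p38, JNK and ERK (chr17:26505590-26562128, minus strand), had 504, 922 and 1213 UMIs, or 11.8, 12.3 and 14.9 CPM. Its level at 50 ng/ml was 1.26-fold that at 0 (1.14 to 1.40). At 50 against 5 ng/ml the log2 ratio was 0.28 from library sums but -0.06 when each cell was given equal weight, so the direction of that step depended on the scaling. With equal weight the median of all genes in that comparison was -0.05. The Dusp1 annotation overlaps Ergic1 on the opposite strand, with 1008, 1720 and 1839 UMIs, and no source used here states whether counting used strand. Dusp5, a nuclear phosphatase selective for ERK (chr19:53529109-53542431, plus strand), had 115, 197 and 230 UMIs, or 2.69, 2.62 and 2.83 CPM. The ratio of Dusp5 at 50 against 0 ng/ml was 1.05 (0.836 to 1.32).

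The 2 cytoplasmic relatives of Dusp6 did not share its dose pattern. Dusp9 (chrX:73639419-73643514, plus strand) was the most abundant member at every dose, with 1949, 3393 and 3891 UMIs and 45.6, 45.1 and 47.8 CPM. Its ratio was 0.99 at 5 against 0 ng/ml (0.935 to 1.05) and 1.05 at 50 against 0 (0.992 to 1.11), and the latter was below 1 when each cell had equal weight (log2 ratio -0.07). With that weighting the median log2 ratio of all genes at 50 against 0 ng/ml was itself -0.09. Dusp7 (chr9:106368632-106375724, plus strand), the closest relative of Dusp6 by sequence, had 422, 702 and 656 UMIs, or 9.88, 9.34 and 8.06 CPM. It was 1.23-fold lower at 50 than at 0 ng/ml (1.08 to 1.39), a difference in the opposite direction to that of Dusp6.

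Dusp16, Dusp10 and Dusp14 had their highest level in the library without FGF4. Dusp16 (chr6:134715468-134792625, minus strand) had 576, 711 and 767 UMIs, or 13.5, 9.46 and 9.42 CPM. It was 1.43-fold lower both at 5 ng/ml (1.27 to 1.59) and at 50 ng/ml (1.28 to 1.60) than at 0, and the ratio of 50 to 5 ng/ml was 1.00 (0.898 to 1.10). The difference for Dusp16 was thus in place at 5 ng/ml, whereas Dusp4 and Dusp6 were higher at the second dose too. Dusp10 (chr1:184013302-184075636, plus strand) was near the limit of detection, with 37, 58 and 45 UMIs, or 0.866, 0.771 and 0.553 CPM. It was 1.57-fold lower at 50 than at 0 ng/ml, with an interval of 0.986 to 2.48 that included 1. Dusp14 (chr11:84048041-84069261, minus strand) had 261, 331 and 416 UMIs, or 6.11, 4.40 and 5.11 CPM. It was 1.39-fold lower at 5 ng/ml (1.18 to 1.64) and 1.20-fold lower at 50 ng/ml (1.02 to 1.40) than at 0, so its lowest level was at the middle dose. None of these members was 2-fold apart, and the middle 95% of all genes spanned log2 ratios of -0.98 to 1.02 at 5 against 0 ng/ml.

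The order of levels within the family therefore depended on dose. At 0 ng/ml Dusp9 was highest, followed by Dusp16 and Dusp1 with overlapping intervals, then Dusp7, Dusp14, Dusp5, Dusp6, Dusp4 and Dusp10. The intervals of Dusp1 and Dusp7, of Dusp6 and Dusp4 and of Dusp4 and Dusp10 also overlapped. At 5 ng/ml Dusp9 was followed by Dusp6 and Dusp1 with overlapping intervals, then Dusp16 and Dusp7, whose intervals overlapped too, then Dusp4, Dusp14, Dusp5 and Dusp10. At 50 ng/ml Dusp9 was followed by Dusp6, Dusp1 and Dusp4, and the intervals of these 4 were apart. Summed over the 9 genes the level was 93.2, 103 and 119 CPM. The share of that sum from Dusp6 was 1.81%, 12.1% and 15.6% and the share from Dusp4 was 1.13%, 6.68% and 10.0%. The share from Dusp9 was 49.0%, 43.6% and 40.1%, although its own level differed little, and the share from Dusp16 was 14.5%, 9.15% and 7.90%.

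**Figure D2:**
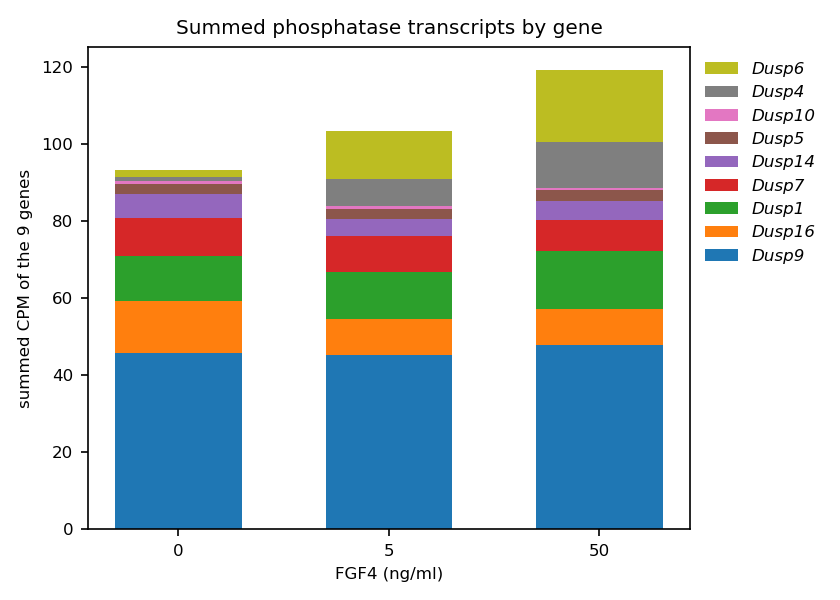
Summed level of the 9 phosphatase genes in CPM (vertical axis) at 0, 5 and 50 ng/ml FGF4 (horizontal axis, 1 library per dose), with each gene as a coloured part of the bar. The total goes from 93.2 to 119 CPM, and the parts for Dusp4 and Dusp6 at the top of the bar widen while the Dusp9 part at the bottom keeps its height.

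Other genes around the MAP kinases were set beside the phosphatases. Of 13 companions of the ERK response, which include the feedback inhibitors Spry and Spred and the transcription factors Etv4 and Etv5, 12 passed the filter and 9 of them were at least 2-fold higher at each dose against 0 ng/ml, with 0 lower. Their median log2 ratio was 1.58 at 5 and 1.77 at 50 ng/ml, below the values of Dusp6 (2.89 and 3.46) and Dusp4 (2.71 and 3.50). Etv4 had a level of 1.17, 49.8 and 88.9 CPM and a log2 ratio of 5.41 and 6.25. Etv5 and Spred2 were not among the 9, with log2 ratios of 0.19 and 0.43 at 5 ng/ml and 0.02 and 0.37 at 50 ng/ml. Myc had 1.66, 13.2 and 19.3 CPM and Spry2 7.35, 42.4 and 54.2 CPM. Spry4 had only 3 UMIs at 0 ng/ml, so its ratio is poorly bounded, and 1058 and 2529 UMIs at 5 and 50 ng/ml. Dusp6 and Myc were thus close in level as well as in ratio at each of the 3 doses.

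Not all genes of the pathway moved with Dusp4 and Dusp6 between doses. Among 14 immediate early genes, which respond within minutes to a growth factor, 8 passed the filter, none was 2-fold higher and 1 was 2-fold lower at each dose. That gene was Egr1, with 40.8, 15.6 and 9.57 CPM. Among 21 MAP kinases, their activating kinases and scaffolds, 19 passed the filter, and at 50 against 0 ng/ml 1 was 2-fold higher and 2 were lower. These were the ERK pathway kinase Braf (log2 ratio 1.00), the scaffold Ksr1 (-1.38) and the p38 activator Map2k6 (-1.36). The median log2 ratio of the 19 was 0.04 at 5 and -0.01 at 50 ng/ml. Of 17 other dual-specificity phosphatase genes, 8 passed the filter and none was 2-fold apart, with Dusp19 at 0.47 and Dusp3 at 0.41 the highest log2 ratios at 5 against 0 ng/ml. Of 6 MAP kinase phosphatases of other families, 3 passed the filter, and the phosphatase subunits Ppp2ca and Ppp2cb and the phosphatase Ppm1d had log2 ratios between -0.14 and 0.08 at 50 against 0 ng/ml.

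**Figure D3:**
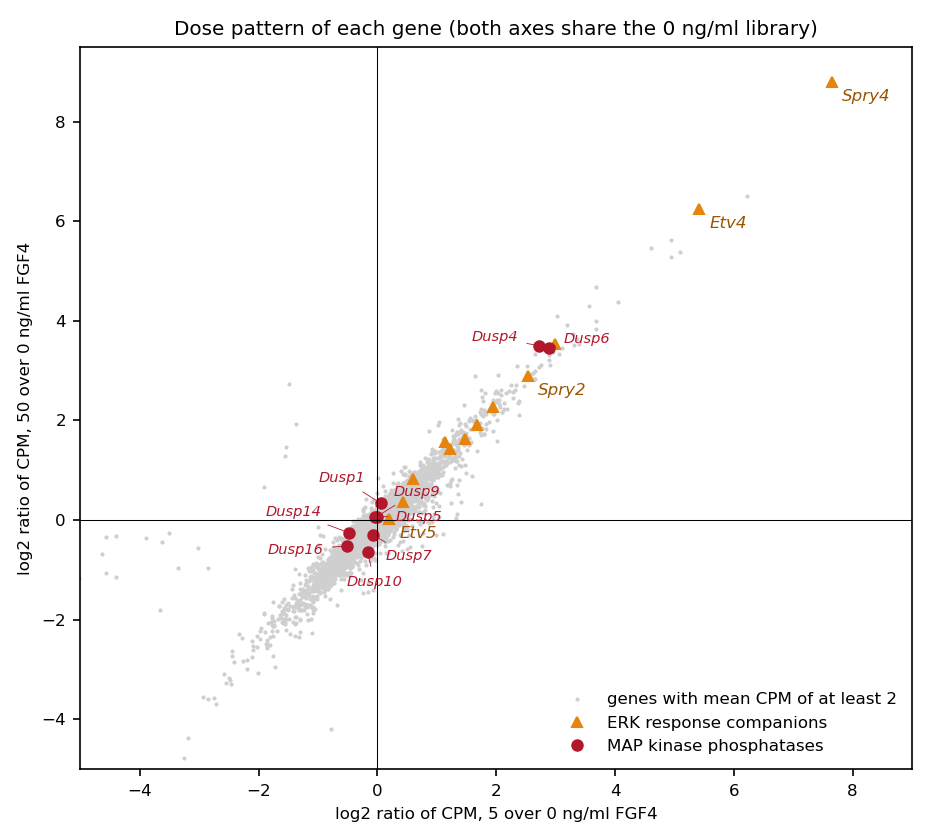
Log2 ratio of CPM at 5 over 0 ng/ml (horizontal axis) and at 50 over 0 ng/ml (vertical axis) for genes with a mean of at least 2 CPM (grey), ERK response companions (orange triangles) and the phosphatases (red circles, Dusp10 included although below that mean). Dusp4 and Dusp6 lie together at 2.71 and 2.89 on the horizontal axis, and the other 7 members lie near the origin; both axes share the 0 ng/ml library, which by itself places genes along the diagonal.

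The genes with the dose pattern nearest to those of Dusp6 and Dusp4 were found by distance over the 2 log2 ratios against 0 ng/ml, among 7236 genes with a mean of at least 10 CPM over the 3 libraries. For Dusp6 these were Pde2a (distance 0.05), Bst2 (0.10), Myc (0.12), Slc7a7 (0.15) and Lef1 (0.21). Dusp4, with a mean of 6.63 CPM, was below the limit of this search, and its distance of 0.18 from Dusp6 was smaller than that of Lef1. For Dusp4 they were Zyx (0.18), Dusp6 (0.18), Pde2a (0.20), Slc7a7 (0.26) and Bst2 (0.27). Pde2a, which encodes a cyclic nucleotide phosphodiesterase, had 1.71, 12.9 and 19.5 CPM, close to Dusp6 in level at each dose. Lef1, a transcription factor of the Wnt pathway, had 8.87, 73.7 and 89.0 CPM and so shared the ratios of Dusp6 at a higher level.

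Promoter sequence was compared where the RefSeq table on GRCm38.p6 had an entry, which was the case for 7 of the 9 members and not for Dusp4 and Dusp9. Dusp6 and Dusp1 are shown because their transcripts differed most and little between doses, respectively. For each the 250 bases before the annotated start are given on the gene's own strand, for Dusp6 chr10:99262981-99263230 (plus strand) and for Dusp1 chr17:26508473-26508722 (minus strand). Capitals mark any match to the CRE, ETS or AP-1 letters.
Dusp6: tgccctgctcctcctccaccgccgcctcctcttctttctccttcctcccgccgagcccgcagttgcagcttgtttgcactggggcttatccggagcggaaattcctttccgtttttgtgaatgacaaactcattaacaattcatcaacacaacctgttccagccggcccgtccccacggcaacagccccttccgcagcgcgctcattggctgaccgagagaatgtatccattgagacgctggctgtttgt
Dusp1: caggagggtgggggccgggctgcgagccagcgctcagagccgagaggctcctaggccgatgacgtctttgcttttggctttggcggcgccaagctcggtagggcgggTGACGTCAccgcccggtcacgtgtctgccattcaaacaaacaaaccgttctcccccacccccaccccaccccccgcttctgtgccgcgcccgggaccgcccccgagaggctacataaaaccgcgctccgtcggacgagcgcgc
The letters searched on both strands, from 250 bases before to 50 after the start, were CCGGAA (ETS), TGANTCA (AP-1), TGACGTCA (CRE), CACGTG (E-box), CTTTGAT (TCF/LEF) and GGGCGG (GC box). The Dusp6 window held none of the 6. The Dusp1 window held a CRE match starting 143 bases before the start, an E-box match 126 bases before it and 3 GC box matches, none of which overlapped. A CRE match occurred in 1.79% of the 32851 promoters in the table, an E-box match in 7.15% and a GC box match in 35.7%. The only ETS match among the 7 members lay in Dusp14, 65 bases before the start, and 14.9% of all promoters held one. AP-1 and TCF/LEF letters, found in 7.81% and 3.73% of all promoters, were in none of the 7 windows.

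Counted by cell, more cells had a UMI of Dusp4 and of Dusp6 at the higher doses, and more cells had several. Because depth per cell differed between libraries, each cell was thinned to 40000 UMIs, which left 360, 706 and 793 cells. The share of cells with a Dusp6 UMI was 6.67% (exact binomial interval 4.32 to 9.76), 35.7% (32.2 to 39.4) and 47.8% (44.3 to 51.3) at 0, 5 and 50 ng/ml. Before thinning these shares were 16.1%, 51.6% and 61.1%. For Dusp4 the thinned share was 3.06% (1.53 to 5.40), 18.7% (15.9 to 21.8) and 32.0% (28.8 to 35.4), and the unthinned share 7.77%, 29.7% and 44.0%. Cells with 3 or more Dusp6 UMIs after thinning made up 3.26% at 5 ng/ml and 7.06% at 50 ng/ml, and none of the 360 cells at 0 ng/ml, which allows a share of up to 0.833%. For Dusp4 the shares with 3 or more UMIs were 1.13% and 3.28%, and also none at 0 ng/ml. With thinned means of at most 0.76 UMI per cell for Dusp4 and Dusp6, a higher mean by itself gives more cells of both kinds. Without thinning, a cell at 0 ng/ml held up to 5 Dusp4 or 4 Dusp6 UMIs.

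Genes of cell types not cultured here were set beside such shares at the same depth. Alb and Ins2 were in no cell, Hba-a1 in at most 0.278% of cells, Cd3e in 6.11%, 9.49% and 10.2%, and Myh6 in 8.61%, 11.2% and 11.9%. The shares of Dusp4 and Dusp6 at 0 ng/ml lay below that of Myh6 and above those of Alb, Ins2 and Hba-a1. That of Dusp6 was also above Cd3e. The genes of this set differed too much from each other to give a background level. Whether the Dusp4 and Dusp6 counts at 0 ng/ml are expression or background was therefore not decided. Where the counts at 0 ng/ml are background, the ratios of Dusp4 and Dusp6 against that library are lower bounds. The shares of Dusp10 at each dose (3.06%, 3.26% and 2.65%) were below both Cd3e and Myh6. Dusp5 had shares of 8.89%, 10.5% and 10.8%, which did not stand clear of Myh6 at any dose. The shares of Dusp4 and Dusp6 at 5 and 50 ng/ml were above every gene of this set.

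Among the remaining members the share of Dusp9 differed least and that of Dusp16 most between doses. Dusp9 had a UMI in 76.9%, 78.6% and 79.9% of thinned cells and 3 or more in 28.6%, 28.3% and 30.3%. Dusp1 was in 36.7%, 35.8% and 43.1% of cells, Dusp7 in 33.3%, 32.9% and 26.7%, and Dusp14 in 19.4%, 15.3% and 16.3%. Dusp16 was in 38.6% (33.6 to 43.9), 28.6% (25.3 to 32.1) and 30.6% (27.4 to 34.0), with the interval at 0 ng/ml apart from that at 5 ng/ml, and its cells with 3 or more UMIs went from 4.17% to 0.850% and 0.757%. Without thinning Dusp9 was in 93.0%, 78.7% and 80.8% of cells, and Dusp1 in 67.0%, 51.3% and 57.3%. The unthinned share of Dusp7 was 60.9%, 47.4% and 43.9%, that of Dusp14 45.6%, 28.1% and 30.8%, and that of Dusp16 68.4%, 45.7% and 47.8%. These unthinned shares were highest at 0 ng/ml for all 5 genes, where cells also had the most UMIs.

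**Figure D4:**
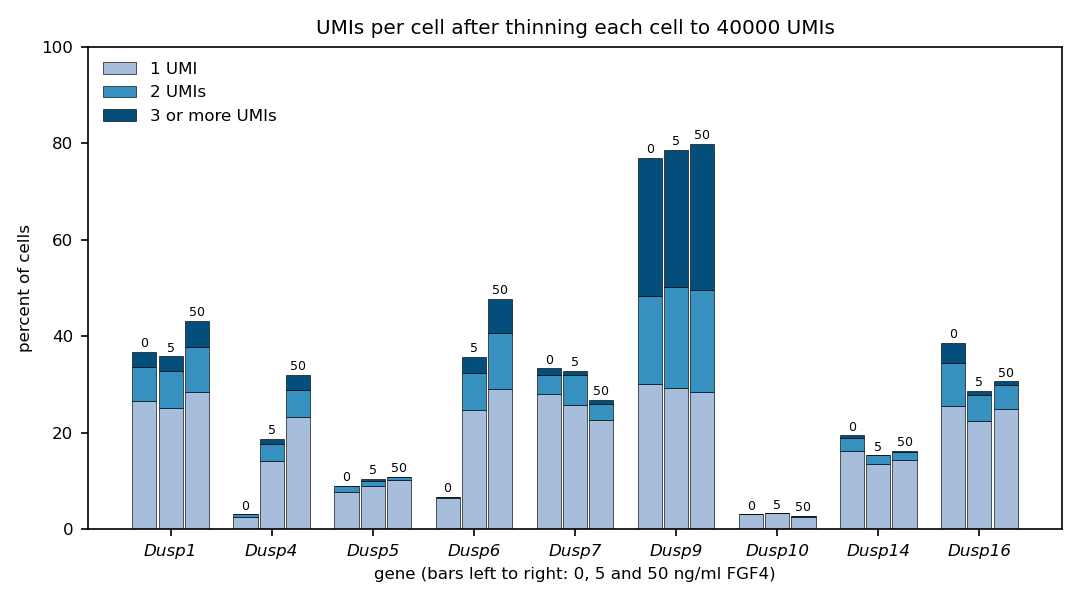
Percent of cells (vertical axis) with 1, 2 and 3 or more UMIs of each phosphatase after thinning each cell to 40000 UMIs, with 3 bars per gene for 0, 5 and 50 ng/ml FGF4 (360, 706 and 793 cells). The Dusp6 bars reach 6.67%, 35.7% and 47.8% and the Dusp4 bars 3.06%, 18.7% and 32.0%, while the Dusp9 bars stay between 76.9% and 79.9%.

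Spread between cells was described by the Fano factor, the variance of the UMI count divided by its mean, which is 1 for pure counting noise. For Dusp4 it was 1.28, 1.50 and 1.45 at 0, 5 and 50 ng/ml, beside medians of 1.08, 1.09 and 1.09 for genes of similar mean in the same library. For Dusp6 it was 1.01, 1.30 and 1.35 beside 1.08, 1.10 and 1.10. Dusp9 had 1.59, 1.44 and 1.45 beside 1.17, 1.15 and 1.16. Dusp1 had 1.62, 1.28 and 1.36, and at 0 ng/ml a single thinned cell held 9 of its UMIs. Apart from Dusp6 at 0 ng/ml these values were above the median, and all of them lay inside the middle 95% of genes of similar mean. A Fano factor above 1 means that the counting intervals, which assume 1, are too narrow. Across the settings tried, the factor of Dusp4 at 5 ng/ml reached 1.89, and none was computed at full depth. Dusp7 and Dusp14 stayed between 1.01 and 1.15 at each dose.

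Joint detection of Dusp4 and Dusp6 was counted in the thinned cells, where a cell without a UMI may still hold the transcript. At 5 ng/ml 7.79% of thinned cells had a UMI of both, 10.9% of Dusp4 alone, 27.9% of Dusp6 alone and 53.4% of neither. At 50 ng/ml these shares were 17.3%, 14.8%, 30.5% and 37.5%. The product of the 2 genes' separate shares was 6.67% at 5 ng/ml and 15.3% at 50 ng/ml, slightly under the observed shares with both. Dusp6 was detected in 53.9% of cells with a Dusp4 UMI and in 44.9% of those without at 50 ng/ml, and in 41.7% and 34.3% at 5 ng/ml. Across cells, the correlation of UMI counts (log2 with a pseudocount of 1) between members with a mean of at least 0.5 UMI per cell had an absolute Pearson value of at most 0.09 over 9 pairs in the 3 libraries, and cells of a library share its depth and handling. With counts this sparse such values are no finding.

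Pooling cells gave more counts per value. Within each library, cells of at least 40000 UMIs were ranked by a list of genes that holds no phosphatase, and the level in the 25% of cells highest in the list (the top cells) was divided by that in the 25% lowest (the bottom cells), with 90, 176 and 198 cells in each at 0, 5 and 50 ng/ml. Such a 25% is a range of cells, not a cell type. Values were taken from thinned counts and, as a setting added after the data were seen, from full-depth counts with the list as a share of the cell's UMIs. Of 162 ratios of each kind, 27 of the thinned and 57 of the full-depth ones had an interval that excluded 1. The same ratios were not computed for other genes. These counts therefore have no background share beside them and are no result about the members.

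Cells high in ERK companions (Spry2, Spry4, Spred1, Spred2, Etv4 and Etv5) held more Dusp4 and Dusp6. Etv5, whose level differed little between doses, made up the largest part of this list's UMIs. Its thinned mean was 7.59, 8.32 and 7.57 UMIs per cell at 0, 5 and 50 ng/ml. At 50 ng/ml the full-depth level of Dusp4 was 18.6 CPM in the top cells and 7.64 CPM in the bottom cells, a ratio of 2.44 (interval 2.0 to 2.99), and the thinned ratio was 2.12 (1.54 to 2.94). Dusp6 had 25.1 and 12.6 CPM at that dose, a ratio of 1.99 (1.70 to 2.34), with a thinned ratio of 2.27 (1.76 to 2.94). At 5 ng/ml the full-depth ratios were 2.34 for Dusp4 (1.78 to 3.10) and 2.13 for Dusp6 (1.73 to 2.64), and the thinned ratios were lower, 1.88 (1.15 to 3.16) and 1.70 (1.23 to 2.38). Thinned to 60000 UMIs, the Dusp4 ratio at 5 ng/ml was 1.24. Dusp9 had ratios of 0.98 (0.884 to 1.08) and 0.89 (0.808 to 0.974) at the same doses, so its level was not higher in these cells. Dusp1 was slightly lower in them, at 0.83 (0.688 to 0.992) and 0.84 (0.711 to 0.993), with thinned ratios of 0.67 and 0.82, but at 5 ng/ml the direction turned with thinning to 20000 UMIs (1.04). Dusp16 had full-depth ratios of 1.42 (1.13 to 1.79) at 5 and 1.24 (0.999 to 1.54) at 50 ng/ml. Its thinned ratios were 1.08 (0.755 to 1.55) and 1.38 (0.995 to 1.94), with intervals that included 1. The median depth of the 50 ng/ml cells before thinning was 98422.5 UMIs in the top and 90054 in the bottom cells, and its part in the ratios was not tested. At 0 ng/ml Dusp4 and Dusp6 had too few UMIs for a useful ratio.

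Dusp4 differed more than Dusp6 along the naive list, although their intervals were not apart at every dose. Along the formative list their intervals overlapped at 5 and 50 ng/ml. Ranked by naive pluripotency genes such as Nanog, Esrrb and Klf4, the top cells had less Dusp4, with a full-depth ratio of 0.53 at 5 ng/ml (0.410 to 0.670) and 0.62 at 50 ng/ml (0.519 to 0.737). Dusp6 had 0.85 (0.709 to 1.02) and 0.85 (0.735 to 0.985) in the same cells, and thinned ratios of 0.90 and 1.01 with intervals that included 1. At full depth the interval of Dusp4 lay below that of Dusp6 at 5 ng/ml and overlapped it slightly at 50 ng/ml. The thinned ratios of Dusp4 were 0.45 (0.285 to 0.710) and 0.60 (0.452 to 0.792). These intervals overlapped that of Dusp6 at 5 ng/ml (0.671 to 1.21) and lay just below it at 50 ng/ml (0.797 to 1.29). Ranked by formative genes such as Otx2, Dnmt3b and Fgf5, which mark the state after the naive one, both were higher, Dusp4 with 1.67 (1.28 to 2.18) and 2.10 (1.74 to 2.55) and Dusp6 with 1.67 (1.37 to 2.04) and 1.65 (1.42 to 1.92). Dusp16 was higher in cells with more naive transcripts, with 1.30 (1.01 to 1.67), 1.27 (1.01 to 1.60) and 1.57 (1.27 to 1.94) at 0, 5 and 50 ng/ml. Its thinned ratios lay between 1.04 (at 0 ng/ml) and 1.49 (at 5 ng/ml), and of the 3 the one at 5 ng/ml had an interval above 1. Other members had full-depth intervals above 1 along the naive list at some doses. These were Dusp1 at 0 (1.40) and 5 ng/ml (1.24), Dusp14 at 0 (1.56) and Dusp9 at 5 (1.12) and 50 ng/ml (1.19). Dusp5 (0.60) and Dusp7 (0.72) lay below 1 at 5 ng/ml. Among these values the thinned interval excluded 1 for Dusp9 at 50 ng/ml alone (1.0006 to 1.34).

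Dusp1 and Dusp16 differed along the G2/M list at every dose, and Dusp14 along the S phase list. In the 25% of cells with the most G2/M transcripts, such as Ccnb1, Cdc20 and Plk1, Dusp1 was lower at every dose, with full-depth ratios of 0.70 (0.540 to 0.899), 0.81 (0.668 to 0.979) and 0.68 (0.575 to 0.798) at 0, 5 and 50 ng/ml. Dusp16 was higher at every dose in the same cells, with 1.41 (1.10 to 1.81), 1.72 (1.36 to 2.19) and 1.38 (1.11 to 1.71). The thinned ratios were 0.53, 0.68 and 0.69 for Dusp1, all with intervals below 1, and 1.23, 1.71 and 1.52 for Dusp16, of which the first had an interval that included 1. Dusp6 had ratios near 1 along this ranking, with 1.00 (0.832 to 1.21) at 5 and 1.03 (0.881 to 1.20) at 50 ng/ml, and Dusp4 had 0.78 (0.610 to 1.00) at 5 and 1.52 (1.26 to 1.84) at 50 ng/ml, where its thinned ratio was 1.33 (0.983 to 1.80). Dusp14 was higher in cells with more S phase transcripts, with 1.74 (1.18 to 2.61), 1.54 (1.12 to 2.13) and 1.58 (1.16 to 2.16), and thinned ratios of 1.32, 1.61 and 1.92, of which the last had an interval above 1. Other members differed along the S phase list at some doses, with full-depth ratios for Dusp7 of 1.41 (1.04 to 1.93) at 0 and 1.49 (1.20 to 1.85) at 5 ng/ml, for Dusp5 of 2.06 (1.35 to 3.19) at 5 ng/ml and for Dusp4 of 0.66 (0.537 to 0.809) at 50 ng/ml. Of these the thinned ratio of Dusp4 (0.73, 0.529 to 0.995) had an interval that excluded 1, and that of Dusp5 lay on the other side of 1 (0.91, 0.471 to 1.75). At 50 ng/ml Dusp1 was also higher along the S phase list, with 1.29 (1.09 to 1.53) and a thinned ratio of 1.51 (1.16 to 1.97). So was Dusp9, with 1.13 (1.03 to 1.24) and a thinned ratio of 1.19 (1.02 to 1.38). Dusp6 had 0.89 (0.766 to 1.03) at that dose, and a thinned ratio of 0.77 (0.601 to 0.978). The top G2/M cells were deeper before thinning, with a median of 130828 against 89585.5 UMIs at 0 ng/ml, 119586 against 86501.5 at 5 ng/ml and 114470 against 84002.5 at 50 ng/ml. The part of that depth in the ratios was not tested.

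**Figure D5:**
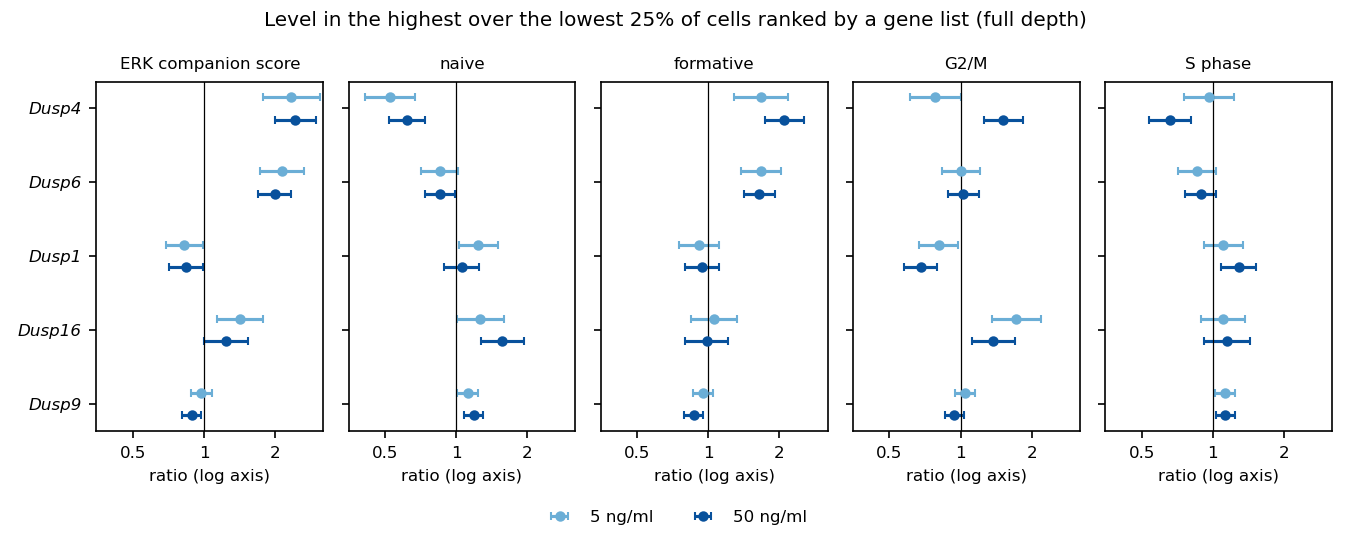
Ratio of the full-depth level in the highest to that in the lowest 25% of cells ranked by each of 5 gene lists (horizontal axes, log scale), for 5 phosphatases at 5 ng/ml (light blue) and 50 ng/ml (dark blue), with 95% counting intervals. Dusp4 and Dusp6 lie to the right of 1 for the ERK companion score (1.99 to 2.44) and formative genes, Dusp4 lies to the left of 1 for naive genes (0.53 and 0.62), and Dusp16 lies to the right of 1 for G2/M.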

How the data were processed

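UMI counts per gene and cell barcode were deposited as whole numbers, written by Cell Ranger 4.0.0 per the file headers, with reads aligned to mm10 per the submitters' processing notes. No source used here gives the annotation release, the choice of cell barcodes or the use of strand, and no label names separate cultures. The 9 members, the gene lists and the comparisons were chosen with earlier results of these data known.

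UMIs were summed per library and scaled to CPM of the library total, from 42726514 to 81409975 UMIs. Levels carry exact Poisson intervals, ratios conditional binomial intervals and shares exact binomial intervals, all at 95%. The level filter was a mean of 2 CPM over the 3 libraries and the fold limit 2. For a count of 0 cells the limit was the share that 3 cells make up. Cells were thinned without replacement to 40000 UMIs and shallower ones left out (13, 168 and 182 cells). Doublets called with Scrublet (in scanpy 1.11.5) were 12, 7 and 26 cells, which were kept and left out in an alternative. Counting code was tested on simulated data. All members were named, with at most 4 genes per list and comparison (those with the largest absolute log2 ratio past the filter) and the 5 genes nearest in dose pattern to Dusp4 and to Dusp6, leaving out predicted genes. Coordinates are from GENCODE M21 (GRCm38, the assembly of mm10), in which 32158 gene identifiers matched. TMM factors came from edgeR 4.0.16, and Python was 3.11.15. Protein identity is from translated GENCODE transcripts, aligned with Biopython 1.88.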

Additional observations from a re-analysis of the deposited data

How the results depend on the processing

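The count of members at least 2-fold higher at 5 and at 50 against 0 ng/ml was 2 under every scaling, cell filter, doublet removal and thinning tried and at fold limits of 1.5 and 3, but 0 in both comparisons with a mean of at least 20 CPM, which leaves out Dusp4 and Dusp6. With a fold limit of 1.5, 1 member was lower at 50 against 0 ng/ml (Dusp10) and 1 higher at 50 against 5 ng/ml (Dusp4). The log2 ratio of Dusp4 was between 2.37 and 2.80 at 5 against 0 ng/ml and between 3.21 and 3.66 at 50 against 0, and that of Dusp6 between 2.87 and 2.92 and between 3.42 and 3.50. No scaling moved the median of all genes by more than 0.1. Of 972 alternative ratios between top and bottom cells, 6 reversed a value whose interval excluded 1. Dusp1 by the ERK companion score at 5 ng/ml was 1.04 at 20000 UMIs. Dusp9 by G2/M at 5 ng/ml, above 1 as thinned, was 0.987 at 60000 UMIs, 0.962 with another seed, 0.973 in filtered cells and 0.938 with 10% of cells. Dusp6 by immediate early genes at 50 ng/ml, 1.38 as thinned (1.10 to 1.72), was 0.928 at 20000 UMIs. The cause was not tested. A further 71 of these ratios and 47 of 108 shares of cells moved beyond their interval, and 30 of 108 Fano factors moved by over 10%. The share of cells with a Dusp6 UMI at 50 ng/ml was 30.4% at 20000 and 60.2% at 60000 UMIs, as a share grows with depth, and that of Dusp4 at 0 ng/ml ran from 2.20% to 6.69%. No paired analysis was possible because each dose was 1 library, and for the same reason no replicate could be left out. Depth limited Dusp10 and, at 0 ng/ml, Dusp4 and Dusp6, whose 45 and 72 UMIs set the width of the ratios.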
